A study of Mus musculus with 12 samples.

Results

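The 10 genes followed here encode enzymes that make, modify and degrade the sphingolipids of myelin: *Sptlc1*, *Sptlc2*, *Cers2*, *Fa2h*, *Ugt8a*, *Gal3st1*, *Galc*, *Arsa*, *Ugcg* and *Sgms1*. They were chosen by enzymatic role and matched by symbol, a rule that uses no measured value, and all 10 were found among the 43432 genes of the count table. RNA was sequenced from sciatic nerve of mice at postnatal day 30 (labelled 1 month), with 1 nerve and 1 library per mouse and 4 mice per group. WT mice carried *Mtmr2* wt/wt and *Mtmr2* KO mice *Mtmr2* -/-, a model of Charcot-Marie-Tooth disease type 4B1, and both groups are labelled as untreated. The paper describes the *Mtmr2* KO group of the niacin comparison as vehicle treated, and whether these mice received vehicle could not be settled. The third group was *Mtmr2* -/- mice given niacin by intraperitoneal injection at 120 mg/kg from day 10 to day 21, followed by Niacin-SR, a slow-release form, by gavage until day 30. No niacin-treated WT group was analysed here, so an effect of niacin outside the mutant background cannot be read from these groups. The genotype is labelled with no restriction to a cell type, and the study kept the line on an inbred background. Libraries are called by the mouse numbers of the labels, 4497 to 4500 for WT, 4501 to 4504 for *Mtmr2* KO and 4505 to 4508 for niacin-treated *Mtmr2* KO.

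Myelin is unusually rich in galactolipids. Serine palmitoyltransferase, whose subunits are encoded by *Sptlc1* and *Sptlc2*, starts the pathway by joining serine to a fatty acyl chain, and ceramide synthases such as *Cers2* complete ceramide. *Fa2h* hydroxylates the acyl chain, *Ugt8a* adds galactose to give galactosylceramide, and *Gal3st1* adds a sulfate group to give sulfatide. In the lysosome *Arsa* removes the sulfate and *Galc* the galactose, and loss of these enzymes causes metachromatic leukodystrophy and Krabbe disease, both of which affect peripheral nerve. *Ugcg* and *Sgms1* draw on the same ceramide to make glucosylceramide and sphingomyelin.

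Libraries held 26653828 to 28390961 counts in WT, 20763951 to 33191106 in *Mtmr2* KO and 20983641 to 22935378 in niacin-treated mice. All 10 genes were among the 17257 that passed the filter on low counts, and each was compared in one edgeR quasi-likelihood fit of all 12 libraries, with a gene called where its p, adjusted by Benjamini and Hochberg's method over all genes tested, was under 0.05. Levels are CPM (counts scaled to a common library size) after TMM normalization. *Mtmr2* itself was at 128 to 161 CPM in WT and 66.8 to 73.5 CPM in niacin-treated mice. Libraries 4501, 4502 and 4504 held 71.6, 84.7 and 69.5 CPM of *Mtmr2*, while the library labelled *Mtmr2* KO 4503 held 143 CPM, within the WT range, and is kept under its label. Library 4502 and all 4 niacin-treated libraries had a tilt towards AT-rich transcripts: the median deviation of the 20% of genes richest in GC, minus that of the 20% poorest, was −0.89 on the log2 scale in 4502 and −0.66 to −0.35 in the niacin-treated libraries, against −0.10 to 0.05 in the other 7. This tilt cannot be told apart from niacin treatment by the design, because all 4 treated libraries carried it. Skeletal muscle transcripts, led by *Myh4*, summed to 2796 and 2778 CPM in niacin-treated libraries 4506 and 4507 and to at most 78.3 CPM elsewhere. Markers of myelinating Schwann cells had none of their 12 genes at 0 and summed to 94400 to 120600 CPM in WT, 92200 to 124800 in *Mtmr2* KO and 66140 to 108200 in niacin-treated mice. Adipocyte markers, led by *Cfd*, summed to 2729 to 3555, 786 to 4605 and 2211 to 4525 CPM in the same order. The remaining lists ranged over all libraries from 457 to 903 CPM for non-myelinating and repair Schwann cells (led by *Scn7a*), from 298 to 619 for macrophages (*Mrc1*), from 4630 to 8688 for fibroblasts (*Dcn*), from 618 to 1153 for perineurial cells (*Itgb4*) and from 170 to 372 for endothelial cells (*Pecam1*). Oligodendrocyte markers (*Mobp*) summed to 6.99 to 29.7 CPM and sensory neuron markers (*Prph*) to 9.71 to 52.8 CPM. In whole nerve, fewer cells of a type and less RNA per cell cannot be told apart.

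Per kilobase of exon, the enzymes that form galactolipids were expressed well above those of the competing branches. *Ugt8a* led in WT at 334 ± 44.5 CPM per kilobase (SD, n = 4), then *Fa2h* at 233 ± 28.8, *Cers2* at 175 ± 17.3 and *Gal3st1* at 64.9 ± 6.66. *Sptlc2* stood at 39.7 ± 2.55 and its partner *Sptlc1* at 18.6 ± 0.59 CPM per kilobase. The lower end held *Sgms1* at 9.21 ± 0.70, *Arsa* at 9.02 ± 0.59, *Galc* at 4.60 ± 0.46 and *Ugcg* at 4.49 ± 0.45. In WT the ranges of the 4 libraries overlapped between neighbours in this order only for *Sgms1* with *Arsa* and for *Galc* with *Ugcg*. Some of these places depend on which bases are counted as the length: *Galc* has 14879 exon bases over all its annotated transcripts but 4439 in its longest one. Per kilobase of the longest transcript, WT *Galc* was at 15.4 CPM, above *Arsa* at 9.51, and *Cers2* at 291 and *Fa2h* at 281 overlapped. In *Mtmr2* KO the order by exon length was the same as in WT, but the ranges of 6 of the 9 neighbouring pairs overlapped. In niacin-treated mice *Fa2h*, at 115 ± 41.3 CPM per kilobase of exon, stood below *Cers2* at 136 ± 33.5, with overlapping ranges. *Galc* at 2.97 ± 0.63 stood below *Ugcg* at 4.36 ± 0.15, without overlap. This place of *Galc* also depends on the length used. Per kilobase of the longest transcript, niacin-treated *Galc* (7.59 to 11.9 CPM) lay above *Ugcg* (5.43 to 5.88 CPM).

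**Figure D1:**
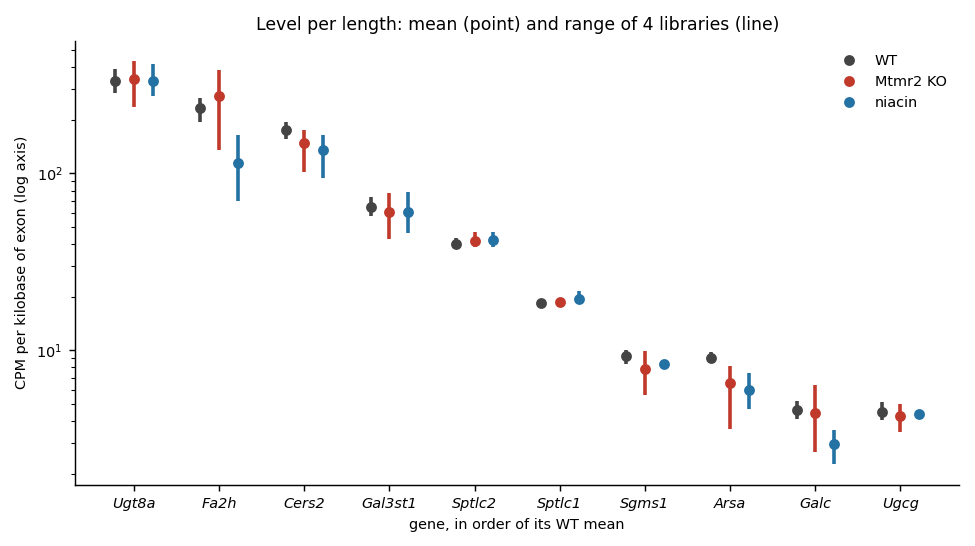
CPM per kilobase of exon (log axis) of the 10 genes in the order of their WT means, as the mean (point) and range (line) of 4 libraries in WT (grey), *Mtmr2* KO (red) and niacin-treated *Mtmr2* KO (blue). *Ugt8a* is highest in each group, and the blue points of *Fa2h*, *Galc* and *Arsa* lie below the grey ones without overlap of their lines.

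The ceramide-forming enzymes overlapped between the groups in every comparison. *Sptlc1* (ENSMUSG00000021468, GRCm38 chromosome 13 from 53332748 to 53377397), a core subunit of serine palmitoyltransferase, was at 68.2, 63.2, 66.2 and 66.8 CPM in WT, 62.8, 69.3, 67.1 and 67.8 CPM in *Mtmr2* KO and 76.7, 67.5, 65.6 and 66.1 CPM in niacin-treated mice. The groups overlapped, with the highest level of all 12 libraries in niacin-treated library 4505. Its log2 fold change was 0.01 (95% interval −0.18 to 0.20) for *Mtmr2* KO versus WT, 0.05 (−0.14 to 0.24) for niacin-treated versus *Mtmr2* KO and 0.06 (−0.13 to 0.25) for niacin-treated versus WT. *Sptlc2* (ENSMUSG00000021036, chromosome 12 from 87305058 to 87388355), the other core subunit, ranged from 305 to 348 CPM in WT, 312 to 377 in *Mtmr2* KO and 312 to 379 in niacin-treated mice. The log2 fold changes of *Sptlc2* were 0.07, 0.02 and 0.09 in the same order of comparisons, each with an SE of 0.13. *Cers2* (ENSMUSG00000015714, chromosome 3 from 95314791 to 95323599), the synthase for very long chain ceramides, was at 716, 574, 675 and 610 CPM in WT, 638, 372, 514 and 648 CPM in *Mtmr2* KO and 607, 591, 458 and 344 CPM in niacin-treated mice. Libraries 4502 and 4508 were the lowest of their groups, and the groups overlapped. For niacin-treated versus WT *Cers2* stood at −0.36 on the log2 scale (SE 0.21, edgeR adjusted p = 0.284), and limma-voom with sample quality weights called the same difference at −0.44 (adjusted p = 0.0129). That limma-voom fit called 42.4% of all genes tested.

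*Fa2h* (ENSMUSG00000033579, chromosome 8 from 111345135 to 111393824), the fatty acid 2-hydroxylase that gives myelin galactolipids their hydroxylated chain, had the largest log2 fold changes of the 10 genes in both comparisons with niacin-treated mice. Its level was 800, 697, 715 and 590 CPM in WT, 1018, 407, 1158 and 719 CPM in *Mtmr2* KO and 395, 493, 288 and 209 CPM in niacin-treated mice. The niacin-treated libraries all lay below WT, whereas the *Mtmr2* KO libraries spread on both sides of WT and their lowest, 4502, lay within the niacin-treated range. The means were 701 ± 86.5 CPM in WT, 825 ± 334 in *Mtmr2* KO and 346 ± 124 in the niacin-treated group (SD, n = 4). Niacin-treated versus *Mtmr2* KO stood at −1.25 on the log2 scale (SE 0.31), which missed the threshold (adjusted p = 0.0614, edgeR; exact permutation p = 0.0571, two-sided). Versus WT it was −1.02 (SE 0.31, adjusted p = 0.106, edgeR; exact permutation p = 0.0286, the smallest that 4 against 4 allows). *Mtmr2* KO versus WT was 0.24 (SE 0.31, adjusted p = 0.719). Without *Mtmr2* KO library 4502, *Fa2h* fell in niacin-treated mice by 1.49 versus *Mtmr2* KO (adjusted p = 0.00531, edgeR) and by 1.03 versus WT (adjusted p = 0.0131), in fits that called 23.6% and 21.6% of all genes tested. Without library 4503, which has *Mtmr2* at the WT level and the highest *Fa2h* of all 12, the values were −1.04 (adjusted p = 0.155) and −1.02 (adjusted p = 0.0651), and *Mtmr2* KO versus WT was 0.03. When single libraries were omitted, the adjusted p ranged from 0.00531 to 0.208 versus *Mtmr2* KO and from 0.0131 to 0.256 versus WT. *Fa2h* transcripts are 55.2% GC, richer than 79.6% of the genes tested. With each library corrected for GC content and transcript length, the log2 fold changes were −1.14 versus *Mtmr2* KO (adjusted p = 0.0427, edgeR, with 2.68% of all genes tested called) and −0.83 versus WT (adjusted p = 0.163).

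*Ugt8a* (ENSMUSG00000032854, chromosome 3 from 125865271 to 125938619), the galactosyltransferase that commits ceramide to galactosylceramide, was at 1775, 1297, 1549 and 1440 CPM in WT. In *Mtmr2* KO it was at 1610, 1962, 1070 and 1522 CPM and in niacin-treated mice at 1882, 1557, 1394 and 1244 CPM. The group means of 1515 ± 202, 1541 ± 367 and 1519 ± 274 CPM (SD, n = 4) were closer together than the libraries of any one group. The 95% intervals of its log2 fold changes were −0.38 to 0.42 for *Mtmr2* KO versus WT and −0.42 to 0.38 for niacin-treated versus *Mtmr2* KO. For niacin-treated versus WT the interval was −0.40 to 0.40. With 4 mice per group, changes within these intervals are not excluded, and larger ones would not necessarily have been called. *Ugt8a* transcripts are among the poorest in GC (38.0%, richer than 2.5% of the genes tested), and after correction for GC content and length the value versus WT was −0.22 (adjusted p = 0.561, edgeR). *Gal3st1* (ENSMUSG00000049721, chromosome 11 from 3983636 to 3999326), the sulfotransferase for sulfatide, was at 151, 118, 132 and 129 CPM in WT, 158, 86.7, 97.1 and 150 CPM in *Mtmr2* KO and 161, 126, 113 and 94.5 CPM in niacin-treated mice. The groups overlapped throughout, with log2 fold changes of −0.11, 0.01 and −0.10 (SE 0.21 each). Its transcripts are the richest in GC of the 10 (59.5%), and the corrected value for niacin-treated versus WT had the opposite sign (0.15, adjusted p = 0.739, edgeR).

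**Figure D2:**
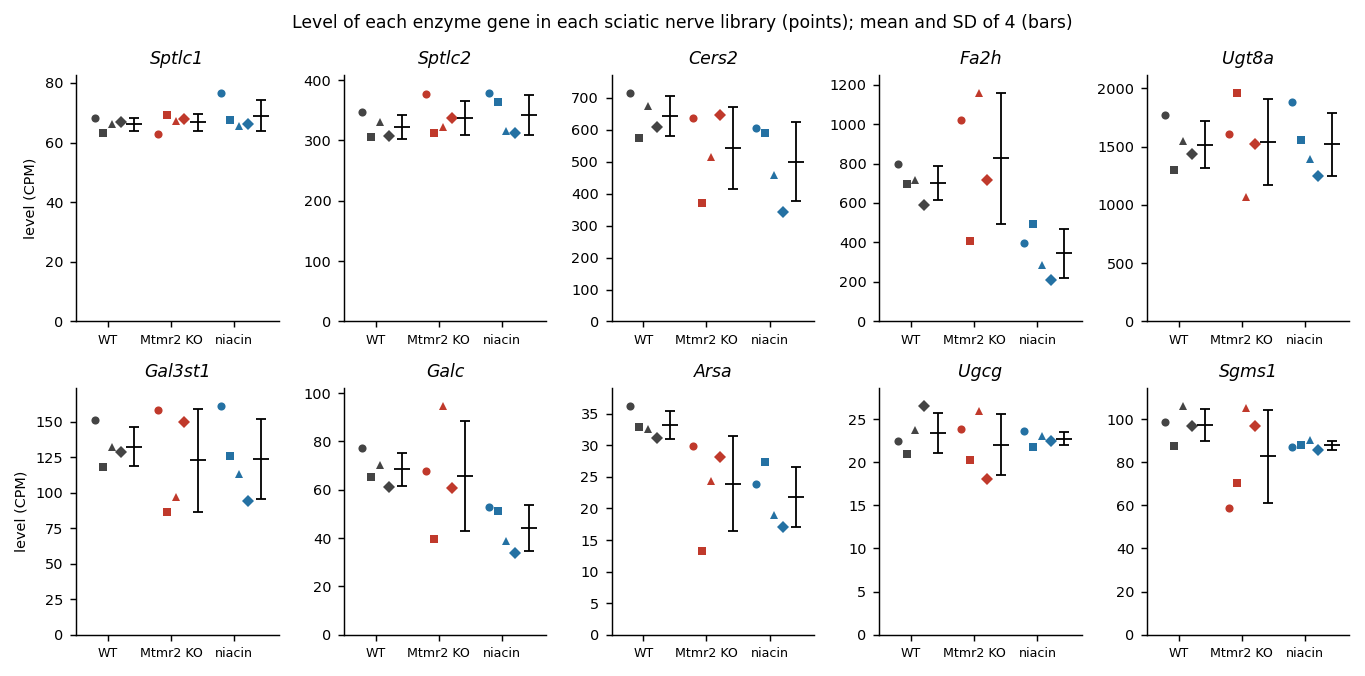
CPM of each gene (linear axis from 0) in the 4 WT (grey), 4 *Mtmr2* KO (red) and 4 niacin-treated *Mtmr2* KO (blue) libraries, in the order of their mouse numbers within a group (circle, square, triangle, diamond), with the mean and SD beside them. The niacin-treated points of *Fa2h*, *Galc* and *Arsa* lie below all WT points, the *Arsa* points of *Mtmr2* KO do too, and library 4502 is the red square.

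Both lysosomal enzymes had lower values in niacin-treated than in WT mice. *Galc* (ENSMUSG00000021003, chromosome 12 from 98202294 to 98259459), the galactosylceramidase, was at 77.1, 65.2, 70.4 and 61.2 CPM in WT, 67.6, 39.8, 94.6 and 60.9 CPM in *Mtmr2* KO and 53.0, 51.1, 38.8 and 33.7 CPM in niacin-treated mice. All 4 niacin-treated libraries lay below WT, and in *Mtmr2* KO library 4502 was low and 4503 the highest of all 12. The log2 fold change was −0.63 versus WT (SE 0.22, adjusted p = 0.130, edgeR; exact permutation p = 0.0286) and −0.58 versus *Mtmr2* KO (SE 0.22, adjusted p = 0.175; exact permutation p = 0.143). Its transcripts are as poor in GC as those of *Ugt8a* (38.3%). Corrected for GC content and length the values were −0.82 (adjusted p = 0.179, edgeR) and −0.72 (adjusted p = 0.161). Without library 4502 *Galc* passed the test in both, at −0.65 versus WT (adjusted p = 0.0201) and −0.77 versus *Mtmr2* KO (adjusted p = 0.0133). In these comparisons the fit without 4502 called 21.6% and 23.6% of all genes tested. Without library 4503 *Galc* was called in neither, at −0.635 versus WT (adjusted p = 0.0677) and −0.35 versus *Mtmr2* KO (adjusted p = 0.475).

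*Arsa* (ENSMUSG00000022620, chromosome 15 from 89472476 to 89477425), the arylsulfatase that removes the sulfate of sulfatide, was the gene whose *Mtmr2* KO libraries did not overlap WT. It was at 36.2, 32.9, 32.6 and 31.1 CPM in WT, 29.9, 13.2, 24.4 and 28.2 CPM in *Mtmr2* KO and 23.9, 27.4, 18.9 and 17.1 CPM in niacin-treated mice. Every mutant library lay below every WT library, with the lowest value in 4502. The log2 fold change was −0.47 for *Mtmr2* KO versus WT (SE 0.22, adjusted p = 0.284, edgeR; exact permutation p = 0.0286), −0.13 for niacin-treated versus *Mtmr2* KO (SE 0.22, adjusted p = 0.761) and −0.61 for niacin-treated versus WT (SE 0.22, adjusted p = 0.135; exact permutation p = 0.0286). Without 4502 the *Mtmr2* KO value was −0.28 (adjusted p = 0.433) and the niacin-treated value versus WT passed at −0.62 (adjusted p = 0.0124). For niacin-treated versus WT that fit called 21.6% of all genes tested. Without 4503 the *Mtmr2* KO and niacin-treated values versus WT were −0.48 (adjusted p = 0.306) and −0.61 (adjusted p = 0.105). *Arsa* transcripts are rich in GC (56.5%, above 85.5% of the genes tested), and with correction for GC content and length its values versus WT were −0.35 (adjusted p = 0.277) for *Mtmr2* KO and −0.32 (adjusted p = 0.320) for niacin-treated mice. *Arsa* shares 690 exon bases, 18.8% of its own, with the antisense gene *C230037L18Rik*, and the sources used here do not say whether strand was used in counting. The antisense gene held 5 to 29 counts per library.

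The enzymes of the competing branches overlapped between the groups in every comparison. *Ugcg* (ENSMUSG00000028381, chromosome 4 from 59189257 to 59222833), the glucosylceramide synthase, was at 22.4, 21, 23.7 and 26.5 CPM in WT, 23.9, 20.2, 25.9 and 18.1 CPM in *Mtmr2* KO and 23.6, 21.8, 23.0 and 22.5 CPM in niacin-treated mice. The niacin-treated libraries lay inside the WT range, and the log2 fold change versus WT was −0.04 (95% interval −0.29 to 0.21). *Sgms1* (ENSMUSG00000040451, chromosome 19 from 32122727 to 32389714), a sphingomyelin synthase, was at 98.8, 87.7, 106 and 96.6 CPM in WT, 59.0, 70.2, 105 and 96.7 CPM in *Mtmr2* KO and 87.2, 88.2, 90.4 and 85.5 CPM in niacin-treated mice. *Mtmr2* KO libraries 4501 and 4502 lay below all other libraries and the other two at WT levels, which put the difference at −0.23 on the log2 scale (SE 0.16, edgeR adjusted p = 0.478). The niacin-treated libraries of *Sgms1* lay close together, with an SD of 2.33% of their mean (n = 4).

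*Mtmr2* KO versus WT asked which of the enzymes differ with loss of the phosphatase. None of the 10 was called by edgeR, where 0.267% of all genes tested were called, and 1 (*Arsa*) had an unadjusted p under 0.05, as did 17.2% of all genes tested. DESeq2 and limma-voom also called none of the 10, where on all 12 libraries they called 4.16% and 0.626% of all genes tested. Values were higher for 4 genes and lower for 6, with a median log2 fold change of −0.07 against 0.03 over all genes tested. Only *Arsa* had groups that did not overlap, 1 of 10 where 9.32% of all genes tested did not. The SD of the log2 level was wider in *Mtmr2* KO than in WT for all 10 genes, with a median over the genes of 0.38 against 0.14, and the median over all genes tested was 0.395 against 0.16.

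Niacin-treated versus *Mtmr2* KO asked which enzymes moved with treatment. EdgeR called none of the 10, where 1.43% of all genes tested were called, and *Fa2h* and *Galc* had an unadjusted p under 0.05, 2 of 10 where 20.1% of all genes tested did. DESeq2 called *Fa2h*, on all 12 libraries (−1.26, adjusted p = 0.00266) and on only the 8 compared (−1.26, adjusted p = 0.0196), where it called 7.46% and 2.71% of all genes tested. With sample quality weights, limma-voom called *Fa2h* (−1.37, adjusted p = 0.0136) and *Galc* (−0.63, adjusted p = 0.0332), and 11.6% of all genes tested. Values were higher for 5 genes and lower for 5, with a median of −0.007 against −0.035 over all genes tested, and the groups overlapped for all 10 where 7.01% of all genes tested did not. Of the 12 myelinating Schwann cell markers, all had lower values in niacin-treated mice than in *Mtmr2* KO, with a median log2 fold change of −0.55, and edgeR called none of them. All 8 adipocyte markers had higher values, with a median of 0.70, and 1 of them was called. Of the non-myelinating and repair Schwann cell markers 8 of 9 had lower values (median −0.46, none called), all 6 macrophage markers had higher values (median 0.28, none called) and all 6 muscle markers had higher values, with 4 called. The 2 oligodendrocyte markers tested had lower values (median −0.93), and 1 was called. In *Mtmr2* KO versus WT, the 8 adipocyte markers all had lower values (median −0.50, 2 called). Niacin-treated versus WT, 4 of these 8 had higher and 4 lower values. The part of these markers in the *Fa2h* and *Galc* values was not tested.

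Niacin-treated versus WT compared treated mutants with healthy nerve. EdgeR called none of the 10 and 0% of all genes tested, of which 24.7% had an unadjusted p under 0.05, and *Fa2h*, *Galc* and *Arsa* were the 3 of 10 at that level. That fit takes the spread of each gene from all 12 libraries, those of *Mtmr2* KO included. The other fits called between 1 and 4 of the 10: DESeq2 on all 12 libraries *Fa2h*, DESeq2 and edgeR on only the 8 compared *Fa2h*, *Galc* and *Arsa*, and limma-voom with sample quality weights these 3 and *Cers2*. These fits called 8.97%, 37.3%, 33.9% and 42.4% of all genes tested (DESeq2 on 12 and on 8 libraries, edgeR on 8, limma-voom), so the last 3 called the enzymes at about the share of all genes. For edgeR on the 8 libraries the values were −1.01 (adjusted p = 0.00605), −0.63 (adjusted p = 0.00631) and −0.60 (adjusted p = 0.00624). The groups did not overlap for 3 of the 10, or 30%, close to the 31.4% of all genes tested. Values were higher for 3 genes and lower for 7, with a median of −0.12 against 0.02 over all genes tested. Without niacin-treated libraries 4506 and 4507, which held muscle transcripts, *Fa2h* was at −1.23, *Galc* at −0.68 and *Arsa* at −0.72 versus WT, each called in neither that fit nor the full one. Versus WT, 8 of the 12 myelinating Schwann cell markers and 7 of the 9 non-myelinating and repair markers tested had lower values (medians −0.12 and −0.42) and all 6 macrophage and all 6 muscle markers had higher values (medians 0.47 and 5.28). EdgeR called none of these markers versus WT, and their part in the enzyme values was not tested. Each group enters 2 of the 3 comparisons, which are therefore not independent.

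**Figure D3:**
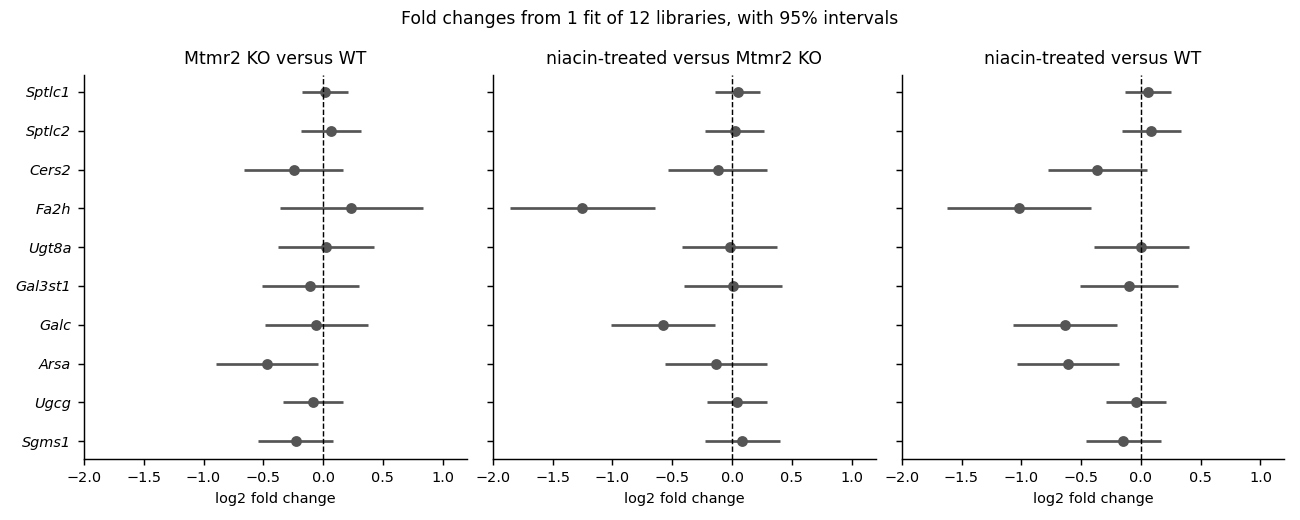
Log2 fold changes (points) and 95% intervals (lines) of the 10 genes in the 3 comparisons, all from one edgeR fit of 12 libraries. *Fa2h* and *Galc* lie left of 0 in both comparisons with niacin-treated mice, *Arsa* in both with WT, and the intervals are not adjusted for the number of genes.

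The libraries of one group differed from each other in these genes. Relative to the WT mean, *Fa2h* was at −0.82, −0.50, −1.28 and −1.74 on the log2 scale in niacin-treated libraries 4505 to 4508. *Galc* was at −0.36, −0.42, −0.81 and −1.02 and *Arsa* at −0.47, −0.28, −0.81 and −0.95 in the same libraries. Library 4508 had the lowest niacin-treated level for 8 of the 10 genes, and 4505 the highest for 7. In *Mtmr2* KO, library 4502 had the lowest level for 6 genes, with *Arsa* at −1.32, *Cers2* at −0.78, *Fa2h* at −0.78, *Galc* at −0.78 and *Gal3st1* at −0.605, yet the highest *Ugt8a* of all 12 libraries at 0.38. Library 4503, the one with WT levels of *Mtmr2*, went the other way, with the highest *Fa2h* (0.73) and *Galc* (0.47) of all 12 and the lowest *Ugt8a* (−0.49). The 2 *Mtmr2* KO libraries without either trait, 4501 and 4504, lay between −0.36 and 0.26 of the WT mean for every gene but *Fa2h* (0.55 in 4501) and *Sgms1* (−0.715 in 4501). With 4502 and 4503 both left out, *Fa2h* and *Galc* were called in both niacin comparisons and *Arsa* versus WT, and none of the 10 in *Mtmr2* KO versus WT. That fit called 12.5% of all genes tested in niacin-treated versus *Mtmr2* KO and 29.6% versus WT, so 3 of 10 versus WT is at the share of all genes.

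**Figure D4:**
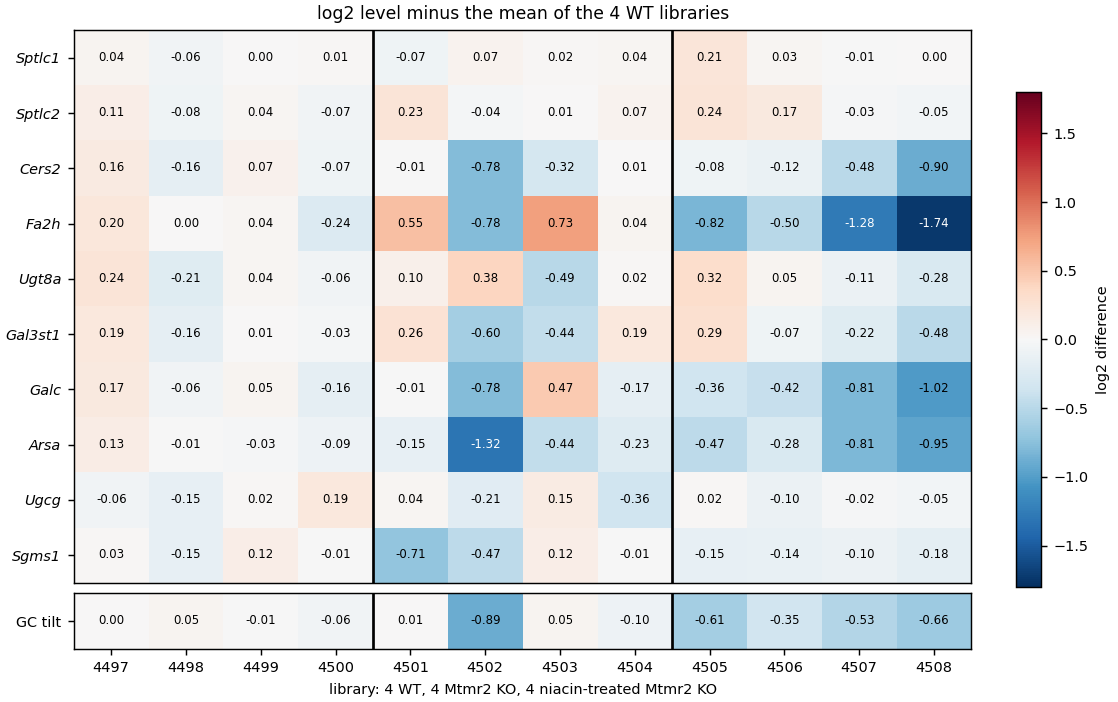
Log2 level of each gene in each library minus the mean of the 4 WT libraries (blue lower, red higher), with the GC tilt of each library, the median deviation of the 20% of genes richest in GC minus that of the 20% poorest, in the bottom row. The darkest blue cells are *Fa2h* in 4507 and 4508 and *Arsa* in 4502, and the tilt is −0.35 or lower in 4502 and in the 4 niacin-treated libraries alone.

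Ratios of a pair of genes within a library do not depend on how libraries are scaled. They are ratios of RNA, and no lipid or enzyme activity was measured here. For galactosylceramide, *Ugt8a* (synthesis) over *Galc* (degradation) was 4.52, 4.31, 4.46 and 4.55 on the log2 scale in WT. In *Mtmr2* KO this ratio was 4.57, 5.62, 3.498 and 4.64, and in niacin-treated mice 5.15, 4.93, 5.16 and 5.204. Niacin-treated mice did not overlap WT, and *Mtmr2* KO libraries 4502 and 4503 lay beyond both groups on opposite sides. The difference of niacin-treated from WT was 0.65 (exact permutation p = 0.0286) but missed the threshold when adjusted over the 15 comparisons of ratios (adjusted p = 0.143). These transcripts have nearly the same GC content, 38.0% and 38.3%. The RNA ratio for sulfatide, *Gal3st1* over *Arsa*, was 1.99 ± 0.10 in WT, 2.38 ± 0.29 in *Mtmr2* KO and 2.497 ± 0.23 in the niacin-treated group (log2, SD, n = 4). Niacin-treated libraries again did not overlap WT (difference 0.51, exact permutation p = 0.0286, adjusted p = 0.143). *Ugt8a* over *Ugcg*, the galactose against the glucose branch, was 6.01 ± 0.23, 6.10 ± 0.54 and 6.04 ± 0.24. *Sptlc1* over *Sptlc2* was −2.28 ± 0.07, −2.33 ± 0.18 and −2.31 ± 0.08. Both overlapped in every comparison (exact permutation p from 0.743 to 0.857). Between niacin-treated mice and WT, 31.4% of all single genes tested did not overlap, and no such share was computed for ratios.

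**Figure D5:**
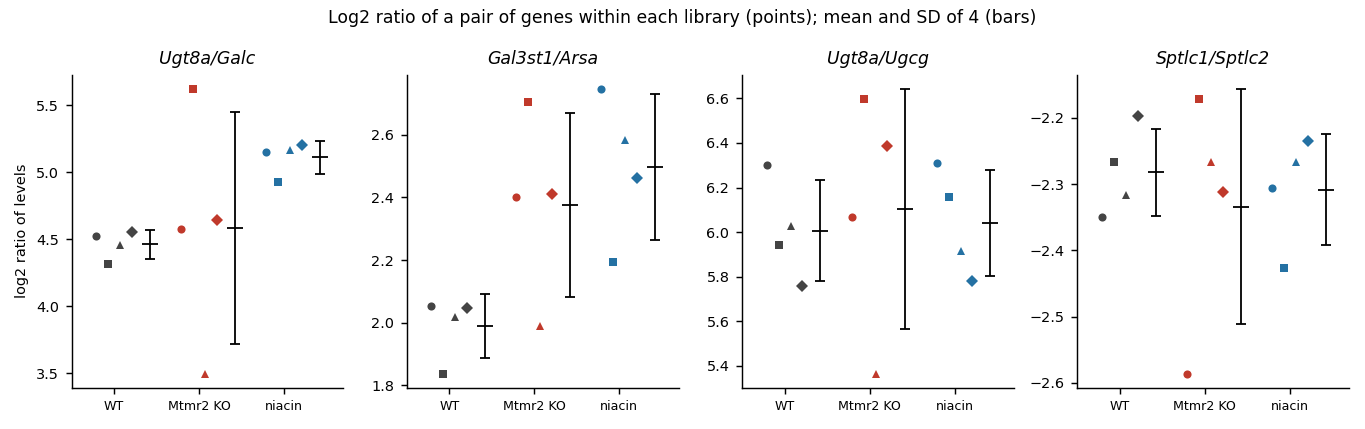
Log2 ratio of the levels of 4 pairs of genes in each library (points, shapes in the order of the mouse numbers) with the mean and SD of each group of 4. The axes do not start at 0, the niacin-treated points of *Ugt8a*/*Galc* and *Gal3st1*/*Arsa* lie above all WT points, and the widest bars are those of *Mtmr2* KO.

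Around these enzymes, 69 further genes of sphingolipid metabolism were matched, of which 65 were tested. Between *Mtmr2* KO and WT edgeR called none of them, 12 (18.5%) had an unadjusted p under 0.05, near the 17.2% of all genes tested, and the median log2 fold change was −0.05. DESeq2 on all 12 libraries called 5 and limma-voom 1, where they called 4.16% and 0.626% of all genes tested. In niacin-treated versus *Mtmr2* KO, edgeR called 0 of the 65 higher and 2 lower, where it called 1.43% of all genes tested. The median was 0.005, against −0.035 over all genes tested. *Sphk2*, a sphingosine kinase, was at 35.1 ± 2.38 CPM in WT, 34.9 ± 9.31 in *Mtmr2* KO and 18.9 ± 2.89 in the niacin-treated group (SD, n = 4), and fell by 0.89 versus *Mtmr2* KO (SE 0.18, adjusted p = 0.0425, edgeR) without overlap. *B4galnt1*, the synthase of complex gangliosides, was at 30.8, 19.9, 102 and 21.2 CPM in *Mtmr2* KO and at 6.61, 11.6, 5.21 and 7.98 CPM in niacin-treated mice, and fell by 2.47 (SE 0.47, adjusted p = 0.0401), with library 4503 far above the rest. Neither call was made by edgeR on only the 8 libraries compared, with *Xist* as a covariate or without the 2 niacin-treated libraries holding muscle transcripts, *Sphk2* was not called without library 4503, and DESeq2 called both. Niacin-treated versus WT called none of the 65 in edgeR, and 24 (36.9%) had an unadjusted p under 0.05, where 24.7% of all genes tested did, and 26 (40%) had groups that did not overlap, where 31.4% did. DESeq2 on all 12 libraries called 7 and limma-voom 35, against 8.97% and 42.4% of all genes tested.

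The most abundant genes per kilobase in each role group were given for context, and edgeR called none of them in any comparison. In ceramide synthesis, the desaturase *Degs1* and the serine palmitoyltransferase subunit *Sptssa* had log2 fold changes of 0.32 and 0.45 for niacin-treated versus WT. In the supply of very long acyl chains, the elongase *Elovl1* was at 0.45 for *Mtmr2* KO versus WT (adjusted p = 0.175, edgeR) and −0.32 for niacin-treated versus *Mtmr2* KO. The reductase *Tecr*, which completes each elongation cycle, was at 0.62 for niacin-treated versus WT (adjusted p = 0.0922), with no overlap. In the supply of galactose and sulfate, *Ugp2*, which makes UDP-glucose, was at 66.7 ± 5.09 CPM in WT and 92.6 ± 7.53 in niacin-treated mice (0.47, adjusted p = 0.115), and *Papss1*, which makes the sulfate donor, was at −0.40. Among the activators that present glycolipids to lysosomal enzymes, *Psap* encodes the saposin precursor that *Galc* and *Arsa* depend on. *Psap* was at 1315 ± 105 CPM in WT and 831 ± 207 in niacin-treated mice (−0.66, SE 0.27, edgeR adjusted p = 0.168) without overlap. *Gm2a*, which encodes the GM2 activator, was at 0.36. In sphingomyelin metabolism *Smpd1*, the acid sphingomyelinase, and *Samd8* were at −0.18 and −0.31. In the glucosylceramide branch *Hexa* and *St3gal2* were at −0.48 and −0.56, and in ceramide turnover *Gltp* and *Cerk* at −0.44 and −0.54, all for niacin-treated versus WT. Besides *Tecr* and *Psap*, the niacin-treated and WT groups of *Degs1*, *Sptssa*, *Ugp2*, *Gm2a*, *Hexa*, *St3gal2* and *Cerk* did not overlap. Those of *Elovl1*, *Papss1*, *Smpd1*, *Samd8* and *Gltp* did, and 31.4% of all genes tested had no overlap in this comparison.

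Over the 12 libraries, genes outside the set whose log2 CPM followed that of *Ugt8a* closely were *Itfg1* (Pearson r = 0.947), *Canx* (0.924), *Rhobtb3* (0.907) and *Socs6* (0.905). The 12 libraries come from 3 groups, and the GC tilt described above is carried by library 4502 and the 4 niacin-treated libraries, not by the rest. The transcripts of these 4 genes have a GC content of 34.9% to 43.1%, against a median of 49.6% over the genes tested. Of the enzymes, *Sptlc1* was most like *Ugt8a* (r = 0.515), then *Sptlc2* (0.491) and *Gal3st1* (0.408). Of all genes tested, 1471, 1746 and 2869 had a higher r with *Ugt8a* than these enzymes, in that order. *Fa2h* (−0.104), *Galc* (−0.194) and *Sgms1* (−0.387) did not follow *Ugt8a*.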

How the data were processed

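Sciatic nerve RNA of 12 mice was polyA-selected and read on a HiSeq sequencer. STAR alignment to GRCm38 was done by the authors, who deposited whole-number read counts per Ensembl gene, without normalization. The submitters' processing notes also name CASAVA 1.9. How reads were assigned to genes, from which annotation and with what use of strand, is not given in the sources used. The 3 deposited DESeq2 tables (fold changes, test statistics and p-values) were used only to pair identifiers with symbols. The tests used edgeR 4.0.16 in R 4.3.3 (filterByExpr, TMM, quasi-likelihood test, two-sided, 1 model of 12 libraries without covariates). SE is the log2 fold change divided by the square root of F, and intervals assume a normal error. Log2 levels used a prior count of 2. The p-values measure the spread between mice, 1 library each. Exact permutation tests used all 70 draws of 4 from 8 libraries, with a smallest p of 0.0286. Positions, exon bases, GC content and longest transcripts are from GENCODE release M21 of GRCm38. GC content was known for 99.3% of genes tested. The gene sets and tests were chosen with earlier results of these data known. Besides the 10 enzymes, the text names *Mtmr2*, called genes of the pathway list (at most 5 per comparison), the 2 most abundant per kilobase in each of its role groups, genes most like *Ugt8a* and the most abundant gene of each of 10 marker lists. Of 70 pathway genes listed, 69 were matched by symbol. Alternatives were DESeq2 1.42.0, limma 3.58.1 (voom, libraries weighted by quality), size factors of DESeq2, edgeR on only the 2 groups compared, other filters on low counts, a prior count of 0.5 for ratios, *Xist* as a covariate and each library left out. A correction for GC content and length (natural splines, 5 degrees of freedom) and the removal of libraries 4506 with 4507 or 4502 with 4503 were chosen after seeing the data. The fit was also run on simulated data, in which all groups had the same spread and no library had a GC tilt. That run could not test the fit under the unequal spread and the tilt of these libraries. Of the planned results, 1 ratio (adjusted for with the others), 1 of the 5 genes most like *Ugt8a* and 1 marker are not reported here.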

Additional observations from a re-analysis of the deposited data

How the results depend on the processing

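No paired analysis was possible because the groups share no mouse numbers. The count of the 10 enzymes called in *Mtmr2* KO versus WT was 0 under all 23 alternatives. In niacin-treated versus *Mtmr2* KO it was 1 with DESeq2 on 12 libraries, DESeq2 on the 2 groups, no filter on low counts and the GC and length correction, and 2 with limma-voom and without libraries 4502 and 4503. In niacin-treated versus WT it was 1 with DESeq2 on 12 libraries, 3 with DESeq2 or edgeR on the 2 groups and without 4502 and 4503, and 4 with limma-voom. Leaving out 1 library gave 0 to 2 and 0 to 3, in each case above 0 only without 4502. The lowest count of any of the 10 enzymes was 295 (*Arsa* in library 4502), so no value of theirs rests on few counts.

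Further counts are for *Mtmr2* KO versus WT (K), niacin-treated versus *Mtmr2* KO (N) and niacin-treated versus WT (W), in this order. Of the pathway genes, DESeq2 on 12 libraries called 5, 7 and 7, limma-voom 1, 11 and 35, and the fit without a filter 4, 5 and 1. DESeq2 on the 2 groups called 3 in K and 28 in W, edgeR on the 2 groups 0 in N and 25 in W, and the GC and length correction 3 in K and 4 in N. N gave 0 with *Xist* and 0 without libraries 4506 and 4507. Without 4502 and 4503, N and W gave 12 and 25. Leaving out 1 library gave 0 to 3, 0 to 18 and 0 to 20.

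Of all genes, DESeq2 on 12 libraries called 718, 1211 and 1246, DESeq2 on the 2 groups 445, 435 and 6033, limma-voom 108, 2007 and 7311, edgeR on the 2 groups 0, 0 and 5586, the fit without a filter 341, 573 and 311, and the fit without 4502 and 4503 11, 2223 and 5263. K and N gave 12 and 50 with *Xist*, 201 and 463 with the GC and length correction, and 6 and 0 without 4506 and 4507. Leaving out 1 library gave 0 to 457, 0 to 4180 and 0 to 3826. Against 46, 246 and 0 in the fit of the report, these counts depend strongly on the test and on single libraries, and the cause was not tested. The median of the 10 enzymes in N moved to −0.2 without 4502 and 4503.

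The values that changed sign were not called under the alternative either. In *Mtmr2* KO versus WT they were *Sptlc1* −0.007, *Ugt8a* −0.02 and *Gal3st1* 0.073 with limma-voom, *Sptlc1* −0.056 and *Ugt8a* −0.05 without a filter, *Ugt8a* −0.102 with the GC and length correction, *Sptlc1* −0.004 without 4506 and 4507, and *Sptlc1* −0.012, *Cers2* 0.003 and *Gal3st1* 0.224 without 4502 and 4503. In niacin-treated versus *Mtmr2* KO they were *Gal3st1* 0 to 3 decimals with DESeq2 and with its size factors, *Sptlc2* −0.066 and *Gal3st1* −0.242 with limma-voom, *Ugt8a* 0.005 without a filter, *Arsa* 0.034, *Ugcg* −0.051 and *Sgms1* −0.017 with the GC and length correction, *Ugt8a* 0.019 without 4506 and 4507, and *Sptlc2* −0.071 and *Gal3st1* −0.33 without 4502 and 4503. In niacin-treated versus WT they were *Ugt8a* −0.07 with limma-voom, −0.045 without a filter, −0.007 with *Xist*, −0.222 with the GC and length correction and −0.002 without 4502 and 4503, and *Gal3st1* 0.147 with the correction.

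Leaving out 1 library changed the sign of other values too. In *Mtmr2* KO versus WT, *Sptlc1* ranged from −0.012 to 0.037, *Ugt8a* from −0.115 to 0.162, *Gal3st1* from −0.256 to 0.027 and *Galc* from −0.289 to 0.117. In niacin-treated versus *Mtmr2* KO, *Sptlc1* ranged from −0.005 to 0.074, *Sptlc2* from −0.03 to 0.082, *Cers2* from −0.275 to 0.026, *Ugt8a* from −0.16 to 0.104, *Gal3st1* from −0.145 to 0.154, *Ugcg* from −0.035 to 0.131 and *Sgms1* from −0.044 to 0.223. In niacin-treated versus WT, *Ugt8a* ranged from −0.121 to 0.087, *Gal3st1* from −0.258 to 0.007 and *Ugcg* from −0.094 to 0.02. Of the log2 ratios, *Ugt8a* over *Galc* ranged from −0.224 to 0.483 in *Mtmr2* KO versus WT, and *Gal3st1* over *Arsa* from −0.009 to 0.229 in niacin-treated versus *Mtmr2* KO. *Ugt8a* over *Ugcg* ranged from −0.067 to 0.343, −0.309 to 0.101 and −0.056 to 0.133 in the 3 comparisons, and *Sptlc1* over *Sptlc2* from −0.105 to 0.033, −0.058 to 0.08 and −0.05 to 0.014.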
